A study of Homo sapiens with 21 samples.

Results

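The interferon-stimulated genes are a set of 41 protein-coding genes that were followed through cancer cell lines before and after they acquired drug resistance. The members were fixed by name, and the rows of the count tables whose Ensembl identifiers belong to these symbols were taken, 41 of 53515 genes in all. RNA sequencing was performed on 21 libraries of 17 human cell lines, namely 7 parental (drug-sensitive) lines and 10 resistant lines derived from them in culture. HepG2, a liver cancer line, gave HepG2S1 and HepG2S3 under sorafenib, and the pancreatic line PancVB, also known as Panc 03.27, gave PancB1Q and PancB1V under 5-fluorouracil. The lung adenocarcinoma line HCC4006 entered as separate parental stocks, HCC4006P1 with the erlotinib-resistant HCC4006ER and HCC4006P2 with the gefitinib-resistant HCC4006GR, and the lung adenocarcinoma line HCC827P gave the gefitinib-resistant HCC827GR. Among the ovarian lines, UWB1.289 gave U10 and U100 under olaparib, and IGROV-1 gave IGROV-1/CDDP under cisplatin. The study classed the HepG2, PancVB, HCC4006 and HCC827 derivatives as having undergone a full epithelial-to-mesenchymal transition and the ovarian derivatives as partial. Of these lines, 2 libraries were made from each of HepG2, HepG2S3, HCC4006P1 and HCC4006ER and 1 from the rest, so 8 of the 10 pairs have at least 1 side with no replicate. Nothing states that the 2 libraries of a line came from separate cultures, so p-values measure the spread between these libraries, which may be technical.

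Interferon-stimulated genes are the response arm of antiviral defence. Type I and type III interferons bind their receptors, the kinases JAK1 and TYK2 phosphorylate STAT2, which with IRF9 is part of a transcription factor that recognises the interferon-stimulated response element, ISRE, in the promoters of the responding genes. The products sense viral RNA (IFIH1, the OAS enzymes), block viral translation (the IFIT proteins) or entry (the IFITM proteins), tether budding particles (BST2) and attach the ubiquitin-like protein ISG15 to targets. Many tumour cell lines express part of the set without added interferon.

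Most promoters of the set found in the reference hold the ISRE core, and 5 promoters are printed because the results below turn on these genes. RefSeq's promoter table held 34 of the 41 members, each as a window of 300 bases from 250 before to 50 after the transcription start. The ISRE core, searched as GAAANNGAAA on both strands (TTTCNNTTTC on the other), was present in 23 of the 34 windows (67.6%), against 996 of all 27303 promoters (3.65%). The GAS core, the motif of the type II interferon response, searched as TTCNNNGAA, was present in 11 of the 34 (32.4%), against 2152 of all promoters (7.88%). Below are the 250 bases before the start, 5′ to 3′, on the gene's own strand, with every ISRE core in capitals. The sequences are RefSeq's and their coordinates come from an exact match to GRCh37: IFIT1 at chr10:91152130-91152379, plus strand, IFI44L at chr1:79085883-79086132, plus strand, BST2 at chr19:17516440-17516689, minus strand, IFI27 at chr14:94576832-94577081, plus strand and CMPK2 at chr2:7006767-7007016, minus strand.
IFIT1: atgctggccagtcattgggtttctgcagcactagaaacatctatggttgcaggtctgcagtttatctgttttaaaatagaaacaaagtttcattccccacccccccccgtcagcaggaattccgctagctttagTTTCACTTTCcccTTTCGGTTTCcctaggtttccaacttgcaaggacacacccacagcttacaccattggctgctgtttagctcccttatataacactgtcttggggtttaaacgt
IFI44L: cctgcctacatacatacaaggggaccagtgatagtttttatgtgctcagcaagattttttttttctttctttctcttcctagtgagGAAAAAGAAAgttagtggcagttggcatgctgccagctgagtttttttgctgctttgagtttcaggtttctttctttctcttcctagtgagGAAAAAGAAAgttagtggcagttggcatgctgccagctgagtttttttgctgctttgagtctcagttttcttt
BST2: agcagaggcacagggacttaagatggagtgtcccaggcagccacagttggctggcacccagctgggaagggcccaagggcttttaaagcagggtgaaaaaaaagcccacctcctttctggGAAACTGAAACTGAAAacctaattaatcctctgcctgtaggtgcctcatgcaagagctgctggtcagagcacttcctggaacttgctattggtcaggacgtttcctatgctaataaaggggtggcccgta
IFI27: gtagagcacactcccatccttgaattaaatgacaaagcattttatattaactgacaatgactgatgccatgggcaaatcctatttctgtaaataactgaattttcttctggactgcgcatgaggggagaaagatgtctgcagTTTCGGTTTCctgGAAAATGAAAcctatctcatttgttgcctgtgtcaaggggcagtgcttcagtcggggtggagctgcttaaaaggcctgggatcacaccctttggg
CMPK2: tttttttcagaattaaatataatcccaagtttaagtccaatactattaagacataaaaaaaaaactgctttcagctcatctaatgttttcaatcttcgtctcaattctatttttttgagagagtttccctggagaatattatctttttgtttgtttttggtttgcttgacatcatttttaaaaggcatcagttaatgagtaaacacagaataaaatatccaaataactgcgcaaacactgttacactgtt
IFIT1, IFI27 and IFI44L carry 2 separate ISRE cores each, the 2 of BST2 overlap, and CMPK2 has none in this window.

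Library sizes ranged from 9851195 to 36639473 counts on genes. Replicate 1 of HCC4006P1 had no counts past a point in chromosome 7 in the alphabetical order of the chromosomes, so levels are given as CPM, read counts scaled to a common total of counts on genes before that point, in every library. SAMD9 and SAMD9L lie past it, and their HCC4006P1 level comes from replicate 2 alone. Liver markers of HepG2 were lost in its derivatives. The 5 markers ALB, APOA1, AFP, TTR and FGB summed to 27144 and 14387 CPM in the HepG2 libraries. Their sum was 0.388 in HepG2S1 and 28.6 and 18.4 in HepG2S3. The pancreas and duct markers KRT19, KRT7, GATA6 and MUC1 summed to 283 and 600 CPM in the HepG2 libraries. Their sum was 3777 in HepG2S1 and 3658 and 4011 in HepG2S3, where KRT7 and MUC1 rose but KRT19 and GATA6 fell. In HCC4006P1 it was 4698 and 4618 CPM, against 222 and 285 in HCC4006ER. In the pancreatic lines the sum was 3997 CPM in PancVB, 1453 in PancB1Q and 1157 in PancB1V, with 3 of the 4 markers over 2-fold lower in each derivative. It was 2677 CPM in HCC827P and 988 in HCC827GR. In HCC4006GR, U10, U100 and IGROV-1/CDDP the sum was higher than in the parental line. The paper reports small copy-number differences between parental and resistant lines, except in the HepG2 pairs. The identity of the derivatives was not tested. The 4 lung adenocarcinoma markers NKX2-1, NAPSA, SFTPB and SFTA3 summed to 368 CPM in HCC4006P2 and 30.3 in HCC4006GR. Their sum was 138 in HCC827P and 41.3 in HCC827GR. All 4 were over 2-fold lower in HCC4006GR, and 3 were in HCC827GR. In the HCC4006P1 and HCC4006ER libraries the sum was between 0.258 and 0.713, so the labelled tissue of these stocks is not seen in these markers. PAX8, of the ovarian lineage, lay between 469 and 891 CPM in the 5 ovarian lines, while WT1 and EMX2 stayed under 1 CPM there. Of 5 leukocyte markers, which sum to at most 17.6 CPM outside HepG2, LYZ made up nearly all of the 2439 and 1385 CPM of the HepG2 libraries, and CD3E stayed under 0.1 CPM everywhere. Their sum was 7.23 CPM in UWB1.289, 13.8 in U10 and 17.6 in U100, but 16.3 in HCC4006P2 and 3.59 in HCC4006GR. PTPRC was called higher in HCC4006ER (log2 fold change 2.85 ± 0.63 SE, edgeR adjusted p = 0.010), where the list summed to 2.51 and 2.23 CPM. CLEC4C and LILRA4, markers of plasmacytoid dendritic cells, were at 0 in all 21 libraries. With IL3RA, the other gene of this list, the sum was at most 2.85 CPM, in HCC4006GR, against 1.46 in HCC4006P2. The sum was 1.70 in U100, 0.380 in U10 and 0.452 in UWB1.289. The part of these differences in the results below was not tested, and in bulk RNA fewer expressing cells and less RNA per cell cannot be told apart.

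Across the 17 lines the level of the set was highest in HCC4006GR. Its mean over the 41 genes was 7.42 on the log2(CPM + 1) scale, followed by PancVB with 5.78, HCC4006P2 with 5.71, U100 with 5.31 and U10 with 4.99. HCC4006P1 had 4.76, with 5.06 and 4.40 in its libraries (the first over the 39 members it covers), and U10, HCC827P (4.48) and HCC4006ER (4.48) lie within this spread, so these lines are not separated. PancB1V (4.37), HCC827GR (4.34) and PancB1Q (4.19) came next, then HepG2S3 (3.88, libraries 3.90 and 3.86), UWB1.289 (3.85), HepG2S1 (3.64), HepG2 (3.12, libraries 3.08 and 3.14), IGROV-1/CDDP (2.88) and IGROV-1 (2.72). In HCC4006GR 31 members reached 100 CPM, against 2 in HepG2 and 3 in UWB1.289, and in IGROV-1 7 members had no count. The 2 parental stocks of HCC4006 were not alike: IFI27 was at 5.43 and 1.74 CPM in HCC4006P1 and 182 in HCC4006P2, and MX2 at 6.58 and 2.06 against 111.

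**Figure D1:**
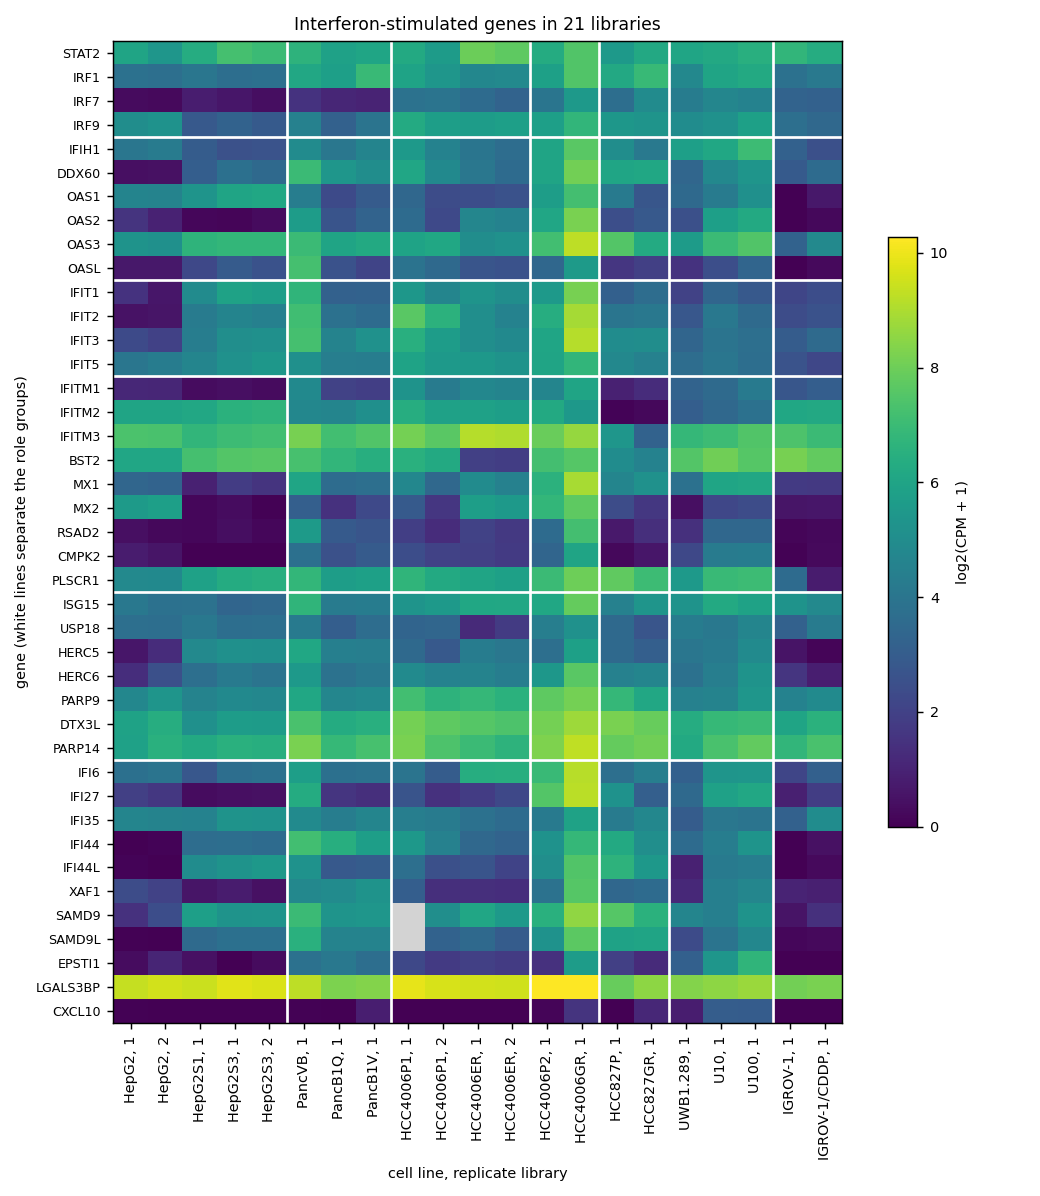
Level of each of the 41 genes (rows, in their role groups) in each of the 21 libraries (columns, parental lines first in each block), as colour on a log2(CPM + 1) scale, with SAMD9 and SAMD9L of HCC4006P1 replicate 1 in grey. The HCC4006GR column is the brightest and the IGROV-1 columns are among the darkest.

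**Figure D2:**
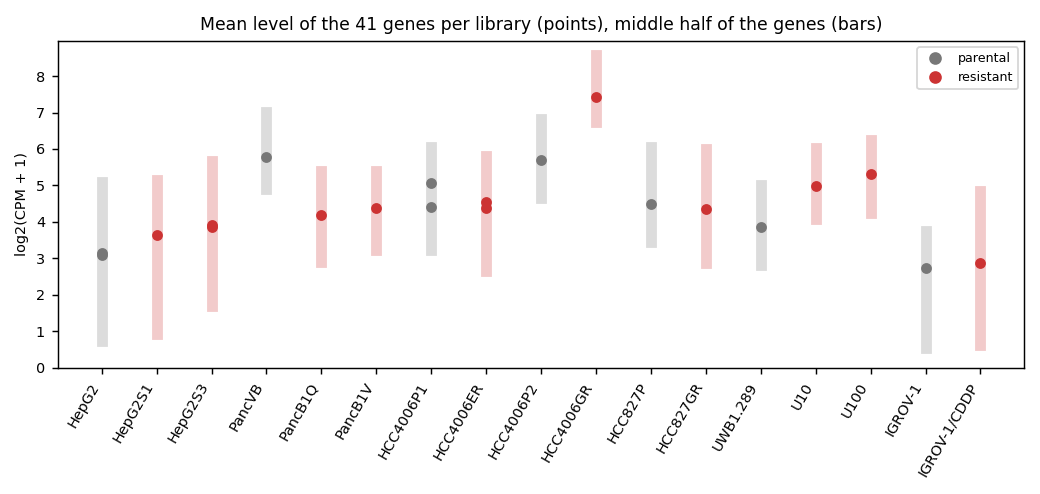
Mean log2(CPM + 1) of the set in each library (points, parental in grey and resistant in red) with bars from the first to the third quartile of the genes in that line. The mean runs from 2.72 in IGROV-1 to 7.42 in HCC4006GR.

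The members did not all follow the mean. Over the 17 lines, which share parental origins and so are not independent, the Pearson correlation of a gene with the mean of the other members was 0.94 for HERC6, an E3 ligase relative, 0.92 for OAS2, 0.91 for RSAD2 and 0.90 for MX1. It was -0.15 for IFITM2, -0.02 for BST2, 0.29 for IFITM3, 0.30 for STAT2 and 0.38 for USP18. IFITM1, IFITM2 and IFITM3 are close paralogs and USP18 has near-identical copies, so reads of these genes may have been split or dropped in counting.

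The first question was how the set stood in each resistant line against its own parental line. The set was higher in HCC4006GR, U10 and U100, lower in PancB1Q and PancB1V, and divided in the HepG2 derivatives and HCC4006ER. The median change of the 41 members in log2(CPM + 1) was 1.67 in HCC4006GR, 1.43 in U100 and 0.99 in U10, and -1.34 in PancB1Q and -0.97 in PancB1V. For HepG2S1 it was 0.16 and for HepG2S3 0.23, HCC4006ER lay at -0.34, HCC827GR at 0.07, and IGROV-1/CDDP at 0.19. The median over 15102 genes with a mean of at least 1 CPM lay within 0.08 of 0 in every pair but those of HepG2, where it was 0.22 for HepG2S1 and 0.20 for HepG2S3, so that relative to all genes the HepG2 medians of the set are near 0. The HCC4006ER median rests in part on 1 library, being -0.06 without replicate 1 of HCC4006P1 and -0.58 without replicate 2. IFITM2, which blocks virus entry, was the 1 member past 2-fold in none of the 10 pairs, as were 30.1% of all genes. Of the members 29 were past 2-fold upward in some pair and downward in another, as were 24.5% of all genes.

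**Figure D3:**
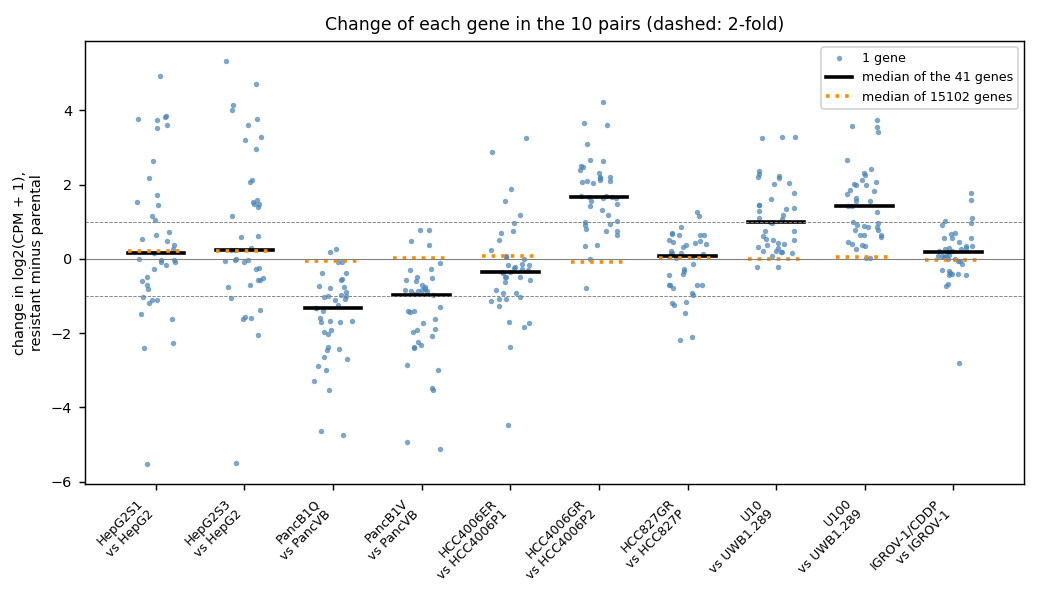
Change of each of the 41 genes (points) in log2(CPM + 1), resistant minus parental, in the 10 pairs, with the median of the set as a black line and the median of 15102 genes as a dotted orange line. The black line lies at 1.67 for HCC4006GR, 0.99 for U10 and 1.43 for U100, and at -1.34 and -0.97 for PancB1Q and PancB1V.

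In gefitinib-resistant HCC4006GR, 31 of 41 members were over 2-fold higher than in HCC4006P2 and none was over 2-fold lower, where 7.36% of all genes were over 2-fold higher and 7.35% lower. Each line had 1 library, so there is no test between conditions; 95% Wilson intervals, which cover counting error only, were apart in the higher direction for 39 members and in the lower for 1, as they were for 21.7% and 31.0% of all genes. All 6 RNA sensors and OAS enzymes, 3 of 4 IFIT proteins and 10 of the 11 genes of mixed function (IFI6 to CXCL10) were past 2-fold.
EPSTI1, an epithelial-stromal interaction gene, went from 1.74 CPM (1.11 to 2.71) to 50.4 (46.6 to 54.5). XAF1, which binds the apoptosis inhibitor XIAP, went from 13.8 CPM (11.8 to 16.2) to 186 (179 to 194), and RSAD2, the radical enzyme viperin, from 11.1 (9.25 to 13.2) to 146 (139 to 153). These are differences of 4.23, 3.66 and 3.604 in log2(CPM + 1). The sensor OAS3 was at 142 and 607 CPM, IFIT3 at 65.5 and 564, IFI27 at 182 and 588 and ISG15 at 68.8 and 227. The lowest changes were those of IFITM2, 74.2 CPM (69.3 to 79.5) against 43.1 (39.5 to 46.9), of the secreted glycoprotein LGALS3BP, 1237 against 1235 CPM, and of BST2, 147 (140 to 154) against 188 (181 to 196). The regulators were higher as well, with STAT2 at 78.6 and 180.04 CPM, IRF1 at 56.4 and 177, IRF7 at 14.8 and 45.8 and IRF9 at 55.3 and 106.

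In the olaparib-resistant lines, 20 of 41 members were over 2-fold higher in U10 and 22 in U100 than in UWB1.289, and none was over 2-fold lower in either. Of all genes 6.03% were over 2-fold higher and 5.14% lower in U10, and 6.38% and 1.81% in U100. Both lines are set against the same UWB1.289 library, so their values are given side by side and are not independent. Intervals were apart in the higher direction for 32 members in U10 and 36 in U100, as they were for 22.7% and 24.9% of all genes.
OAS2, a 2′-5′-oligoadenylate synthetase that activates RNase L, was at 4.63 CPM (3.41 to 6.28) in UWB1.289, 54.3 (49.4 to 59.7) in U10 and 73.9 (68.8 to 79.4) in U100. XAF1 was at 1.24 CPM (0.694 to 2.22), 20.7 (17.7 to 24.1) and 25.1 (22.2 to 28.4). IFI44L was at 0.903 CPM (0.458 to 1.78) in UWB1.289, 17.1 (14.5 to 20.3) in U10 and 19.3 in U100, and EPSTI1 at 7.79, 41.7 and 104. For these 4 genes both resistant lines lie above the parental interval. The chemokine CXCL10, at or under 2 CPM in every other line, was at 0.790, 7.23 and 6.88 CPM. Of the 4 IFIT proteins, IFIT1 (3.05, 9.26 and 6.38 CPM) and IFIT2 (5.98, 16.1 and 10.9 CPM) were past 2-fold in U10 and none in U100 on the log2(CPM + 1) scale, although the ratio of the CPM of IFIT1 was 2.09 there. The lowest changes in U100 were those of BST2, at 186, 267 and 187 CPM, IFIT5, at 11.7, 15.6 and 12.1, and IRF7, at 18.7, 25.2 and 22.8. The lowest changes in U10 were those of USP18, which removes ISG15 from its targets, 19.1 CPM (16.4 to 22.2) to 16.1 (13.5 to 19.2), SAMD9, 24.7 (21.7 to 28.2) to 20.9 (18.0 to 24.4), and the ADP-ribosyltransferase PARP9, 22.02 (19.1 to 25.3) to 23.5 (20.3 to 27.1), with overlapping intervals.

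In the 5-fluorouracil-resistant lines the order was the other way. In PancB1Q 27 of 41 members, and in PancB1V 20, were over 2-fold lower than in PancVB, and none was over 2-fold higher. Of all genes 8.20% were over 2-fold lower and 5.96% higher in PancB1Q, and 6.49% and 8.40% in PancB1V. PancVB has 1 library and is shared by both comparisons.
OASL, an OAS relative without synthetase activity, was at 149 CPM (144 to 155) in PancVB, 5.03 (4.19 to 6.05) in PancB1Q and 3.33 (2.62 to 4.25) in PancB1V. IFI27, a mitochondrial membrane protein, was at 78.5 CPM (74.5 to 82.8), 1.96 (1.46 to 2.63) and 1.59 (1.12 to 2.26). IFIT1, which binds viral RNA caps, was at 104 CPM (99.6 to 109), 8.06 (6.97 to 9.33) and 8.36, and IFIT2 at 139 (134 to 145), 13.2 and 11.1 (9.74 to 12.7). IFIT1 and IFI27 both carry 2 ISRE cores in the promoters printed above, and OASL and IFIT2 had no promoter in the reference. BST2, with 2 overlapping cores, changed by -0.53 in PancB1Q and -0.83 in PancB1V in log2(CPM + 1). CMPK2, with none in its window, changed by -1.245 and -0.84. Whether the cores bear on these changes was not tested. All 7 genes of the ISG15 and ADP-ribosylation system were past 2-fold lower in PancB1Q and 4 of them in PancB1V, ISG15 itself being at 104, 18.1 and 19.1 CPM. A few members stood apart: XAF1 was at 26.6 CPM (24.3 to 29.1), 30.2 (28.0 to 32.5) and 37.4 (34.8 to 40.3), EPSTI1 at 13.2 (11.6 to 15.03), 16.2 (14.6 to 18.0) and 12.3, and the transcription factor IRF1 at 71.3 (67.4 to 75.4), 55.0 and 123 (118 to 128). IFITM2 was at 25.9, 24.5 and 34.0 CPM, and CXCL10 had 1 count in PancVB, none in PancB1Q and 0.821 CPM in PancB1V.

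In HCC827GR and IGROV-1/CDDP fewer members passed 2-fold than in the pairs above. In HCC827GR 2 were over 2-fold higher and 6 lower than in HCC827P, where 9.70% and 7.17% of all genes were. IFITM3 was at 41.6 CPM (38.2 to 45.3) and 8.27 (6.76 to 10.1), IFI27 at 36.3 (33.1 to 39.8) and 7.66 (6.21 to 9.44) and OAS1 at 17.2 (15.1 to 19.6) and 5.63 (4.41 to 7.19), while IRF7, the main activator of interferon genes, was at 12.02 (10.3 to 14.1) and 30.2 (27.2 to 33.6), CXCL10 at 0 and 1.23 CPM and ISG15 at 21.8 (19.3 to 24.5) and 40.2 (36.7 to 44.1). In IGROV-1/CDDP 4 were over 2-fold higher and 1 lower than in IGROV-1, against 5.07% and 6.85% of all genes. IFI35 was at 8.25 CPM (7.10 to 9.59) and 30.9 (28.5 to 33.5), OAS3 at 8.45 (7.28 to 9.80) and 27.5 (25.2 to 30.0) and USP18 at 8.01 (6.87 to 9.33) and 18.3 (16.5 to 20.3). PLSCR1, a phospholipid scramblase with antiviral activity, was the lower gene, at 11.1 CPM (9.73 to 12.6) and 0.741 (0.441 to 1.24), while HERC6, at 2.00 (1.48 to 2.72) and 0.794 (0.481 to 1.31), and IFIH1, at 8.06 (6.92 to 9.38) and 4.66 (3.78 to 5.74), were next without passing 2-fold in log2(CPM + 1). OAS1 had no count in IGROV-1 but 11 in its derivative, at least 3.97-fold higher when 3 counts are taken as the floor over the line.

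The second question was which members differed beyond replicate spread in the pairs with 2 libraries on each side. In sorafenib-resistant HepG2S3 the set was divided. By mean level 17 of 41 members were over 2-fold higher than in HepG2 and 7 over 2-fold lower, as were 25.1% and 14.9% of all genes. In HepG2S1 it was 14 and 9 members, as were 24.5% and 15.3% of all genes. In HepG2S3 all 4 IFIT proteins, IFI44, IFI44L, SAMD9 and SAMD9L rose, while the MX proteins, IRF9 and IFITM1 fell. By edgeR's quasi-likelihood test (threshold of 0.05 after Benjamini-Hochberg adjustment over 16929 genes), 17 of 37 tested members were higher (45.9%) and 12 lower (32.4%), where 31.4% of all genes were called higher and 32.1% lower. The share of members called lower was thus near that of all genes. IRF7, RSAD2, EPSTI1 and CXCL10 were too low in both lines to be tested.
IFI44L was at 0.0669 and 0 CPM in HepG2 and 37.9 and 43.6 in HepG2S3, in total 2 and 2062 counts, a ratio of 1181 (exact 95% interval 326 to 9757). Its neighbour IFI44 (IFI44L at chr1:79085587-79111830, IFI44 at chr1:79115481-79129763, GRCh37) was at 0 and 0.0710 CPM and at 12.04 and 11.2, a ratio of 337 (93.0 to 2792). SAMD9L, which restrains virus replication, was at 0.0335 and 0 CPM and at 13.01 and 12.95 in HepG2S3, a ratio of 754 (135 to 29810). The fitted log2 fold changes were 9.73 ± 0.50 (SE), 7.91 ± 0.59 and 8.93 ± 0.52 (edgeR adjusted p = 9.6e-05, 0.00029 and 0.00014), but with 1 or 2 counts in HepG2 their size depends on the prior count. IFIT2 was at 0.401 and 0.497 CPM and at 23.9 and 21.1 (log2 fold change 5.32 ± 0.25 SE, edgeR adjusted p = 8.1e-05), IFIT1 at 1.84 and 0.533 and at 59.8 and 53.9 (5.24 ± 0.53, 0.00079), and HERC5, the ligase that attaches ISG15, at 0.535 and 1.49 and at 35.1 and 34.1 (4.78 ± 0.44, 0.00059). For each of these genes the 2 groups do not overlap, and the other derivative HepG2S1, in its 1 library, was on the same side with IFI44L at 30.6 CPM, IFIT1 at 30.3 and HERC5 at 27.3. Both derivatives are set against the same HepG2 libraries, so their changes are not independent.
MX2, a GTPase that blocks nuclear import of viruses, was at 47.8 and 54.4 CPM in HepG2 and at 0.273 and 0.0400 in HepG2S3 (log2 fold change -8.61 ± 0.48 SE, edgeR adjusted p = 0.00012), and 1 count in HepG2S1 gave 0.129 CPM. Its neighbour MX1 was at 9.47 and 8.52 CPM in HepG2, at 0.905 in HepG2S1 and at 2.53 and 1.92 in HepG2S3 (-2.33 ± 0.26, edgeR adjusted p = 0.0010). CMPK2, a mitochondrial nucleotide kinase with no ISRE core in its printed promoter, was at 0.736 and 0.497 CPM and had no count in any HepG2S1 or HepG2S3 library, at least 10.5-fold lower with 3 counts over the HepG2S3 libraries as the floor. IRF9, the DNA-binding subunit of the interferon-activated complex, was at 31.6 and 37.0 CPM and at 8.41 and 6.52 (-2.52 ± 0.20, edgeR adjusted p = 0.00037), with 6.34 in HepG2S1. STAT2, its partner, was at 62.9 and 40.7 CPM and at 150.3 and 127 (1.10 ± 0.25, edgeR adjusted p = 0.012). In all, 1 regulator rose and 1 fell, 4 sensors and OAS enzymes rose and 2 fell, 2 antiviral effectors rose and 5 fell, and the ISG15 system had 2 of each. CMPK2 and RSAD2 overlap at their starts, as do PARP9 and DTX3L, and whether their reads were told apart by strand is not given in the sources used here.

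In erlotinib-resistant HCC4006ER more of the set fell than rose. By mean level 5 of 41 members were over 2-fold higher and 10 over 2-fold lower than in HCC4006P1, as were 11.9% and 9.88% of all genes. Of 38 tested members 7 were higher and 15 lower than in HCC4006P1 by edgeR over 12791 genes, where 24.1% of all genes were called higher and 24.9% lower. The count of lower members rests on the HCC4006P1 libraries, which differ in the level of the set: it was 28 without replicate 2 and 16 without replicate 1. It was also 4, with 3 higher, in a fit of all genes with those that replicate 1 lacks.
BST2, which tethers virus particles to the cell, was at 89.8 and 75.1 CPM in HCC4006P1 and at 2.89 and 2.61 in HCC4006ER (log2 fold change -4.98 ± 0.17 SE, edgeR adjusted p = 1.0e-05). IFIT2 was at 198 and 97.2 CPM and at 33.1 and 22.5 (-2.48 ± 0.34, edgeR adjusted p = 0.0015), USP18 at 8.89 and 9.42 and at 1.32 and 2.42 (-2.37 ± 0.31, 0.0013), and DDX60, a helicase that aids RNA sensing, at 65.8 and 28.4 and at 15.8 and 11.1 (-1.88 ± 0.38, 0.0074). The groups do not overlap for any of these 4 genes, BST2 being the widest apart, although the HCC4006P1 libraries differ by about a factor of 2 for IFIT2 and DDX60.
Upward, MX2 was at 6.58 and 2.06 CPM in HCC4006P1 and at 53.5 and 45.8 in HCC4006ER (3.43 ± 0.42, edgeR adjusted p = 0.00098). IFI6, an antiapoptotic membrane protein, was at 14.3 and 7.03 CPM and at 84.2 and 85.9 (2.91 ± 0.29, 0.00039), and STAT2 at 74.9 and 49.5 CPM and at 249.5 and 212 (1.82 ± 0.20, 0.00057). OAS2, IFITM3, HERC5 and ISG15 were the other 4 called higher, with log2 fold changes from 0.63 to 1.60. IFIT1 was at 42.2 and 24.8 CPM and at 38.8 and 31.6, with a fitted change of -0.004 ± 0.24 (SE), and the 2 groups overlap.

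**Figure D4:**
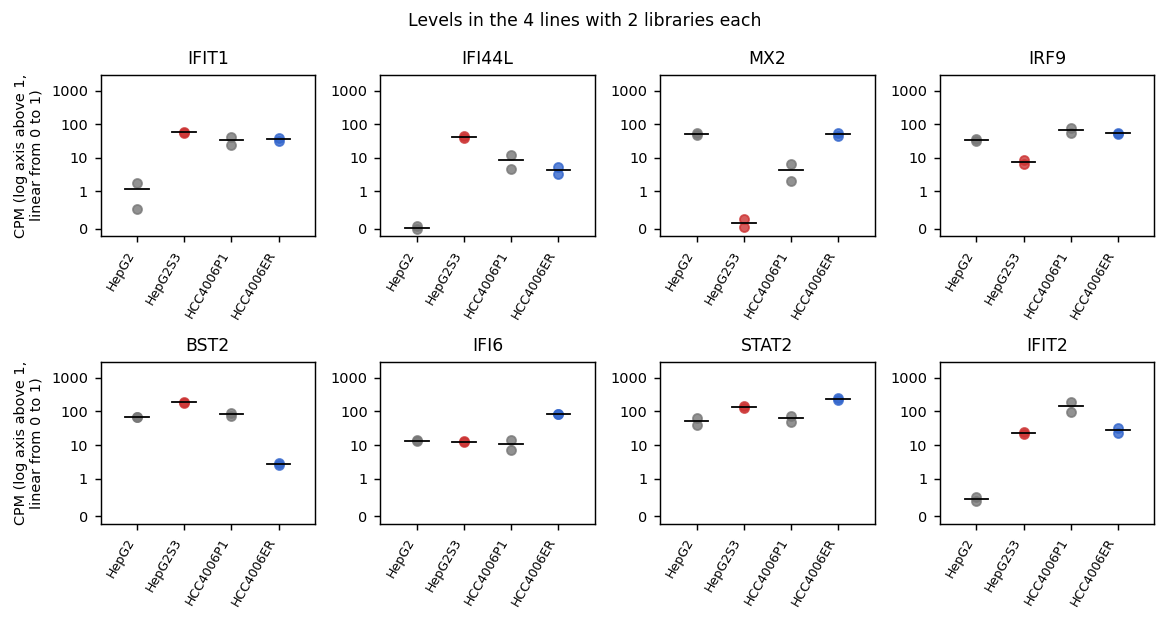
CPM of 8 genes in the 4 lines with 2 libraries each, as points with the mean as a line, on an axis that is linear from 0 to 1 and logarithmic above. IFIT1, IFI44L and IFIT2 are near 0 in HepG2 and between 21.1 and 59.8 in HepG2S3, MX2 is low in HepG2S3, and BST2 is at 2.89 and 2.61 in HCC4006ER.

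The replicated changes were then compared with each other, since they share no library. Of 38 members tested for the difference between the HepG2S3 change and the HCC4006ER change by edgeR, 29 passed (19 more positive in HepG2S3, 10 more negative), where 28.2% of all genes passed upward and 27.7% downward. Of the 35 members tested in both pairs, 8 rose in HepG2S3 and fell in HCC4006ER (DDX60, OAS3, OASL, IFIT2, IFIT3, BST2, PLSCR1 and IFI44), and 4 fell in HepG2S3 and rose in HCC4006ER (OAS2, IFITM3, MX2 and ISG15), as did 8.87% and 7.56% of 11777 genes tested in both. STAT2 and HERC5 rose in both and IFIH1 and DTX3L fell in both, as did 7.37% and 8.36% of these genes. STAT2's changes differed by -0.69 ± 0.33 (SE), which did not pass (edgeR adjusted p = 0.11), so a difference of that size is not shown.

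**Figure D5:**
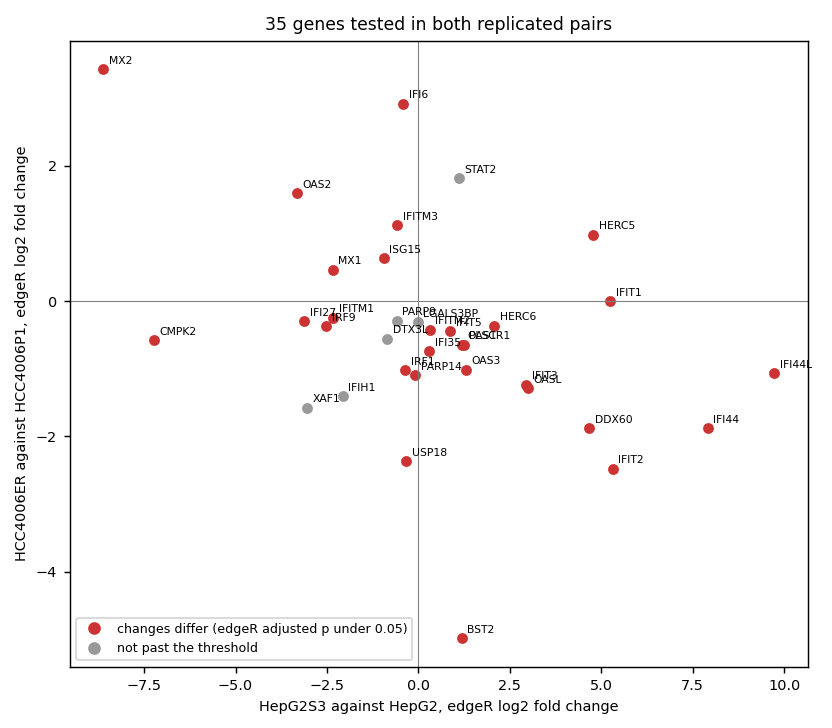
Fitted log2 fold change of the 35 members tested in both replicated pairs, HepG2S3 against HepG2 on the x axis and HCC4006ER against HCC4006P1 on the y axis, with the 29 whose changes differ in red. IFI44L, IFI44 and IFIT2 lie far right and below 0, MX2 lies far left and above 0, and BST2 lies lowest at -4.98.

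Whether any member moved the same way across the parental lines was asked with 7 parental and 7 resistant summed profiles, with the parental line as a block. By edgeR, no gene of 15500 was called (0% in each direction), and of 39 tested members none was called and 1 had an unadjusted value under 0.05, CXCL10 (log2 fold change 3.10 ± 0.94 SE, edgeR adjusted p = 0.99). By DESeq2 67 genes were called higher and 16 lower, none of them a member, with 2 members at an unadjusted p under 0.05. The median fitted change of the members was 0.40, and it was 0.03 without UWB1.289 and its derivatives and -0.02 without HCC4006P2 and HCC4006GR.

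The ligands of the pathway were close to absent. IFNB1 was at most 0.408 CPM in any library that covers it, IFNG and IFNA2 had no count in the libraries that cover them, and IFNL1, IFNL2 and IFNL3 were at most 0.326. IFNE, an epithelial type I interferon, was the exception, at 2.01 CPM in HCC4006P2 and 14.6 in HCC4006GR. It was also called higher in HepG2S3 (log2 fold change 6.91 ± 0.88 SE, edgeR adjusted p = 0.0032). No interferon or receptor of this list rose by more than 1.10 in log2(CPM + 1) there. IFNE was thus near 0 in HepG2, and the size of its fitted change depends on the prior count. Of 12 interferons and receptors, 5 were tested in HepG2S3 with 2 higher and 1 lower, and 4 in HCC4006ER with 3 higher and 1 lower. By the same edgeR tests, 31.4% of all genes were called higher and 32.1% lower in HepG2S3, and 24.1% and 24.9% in HCC4006ER. The counts of the lists that follow stand beside the same shares and were not tested against them. The receptor chain IFNLR1 was at 21.3 and 21.4 CPM in HepG2 and at 6.54 and 6.12 in HepG2S3, and at 12.1 and 15.03 in HCC4006P1 and 2.51 and 3.37 in HCC4006ER. IFNAR2 was at 5.49 and 4.26 CPM in HCC4006P1 and at 22.5 and 20.8 in HCC4006ER.
Of 10 genes of JAK-STAT signalling and its inhibitors, 2 were higher and 3 lower of 10 tested in HepG2S3, and 5 higher and 2 lower of 9 tested in HCC4006ER. JAK1 was at 183 and 236 CPM in HepG2 and at 557 and 524 in HepG2S3, and its level was 24.4 CPM in IGROV-1 and 21.8 in the cisplatin-resistant line, where the set was lowest, below its 183 to 901 CPM elsewhere. Whether the level of JAK1 bears on that of the set was not tested. The feedback inhibitor SOCS1 was at 1.15 and 0.645 CPM in HCC4006P1 and at 10.6 and 9.61 in HCC4006ER.
Of the type II arm, 1 gene was higher and 5 lower of 8 tested in HepG2S3, and 1 higher and none lower of 7 in HCC4006ER. Its CXCL9, a T cell chemokine, was at 69.6 CPM in PancVB, at 0.326 in HCC4006GR and at 0 in every other library.
Of 13 matched genes that sense nucleic acids upstream of interferon, 6 were higher and 5 lower of 12 tested in HepG2S3, and 2 higher and 5 lower of 12 in HCC4006ER. MB21D1, which encodes the DNA sensor cGAS, was at 0.301 and 0.462 CPM in HepG2 and at 26.6 and 34.8 in HepG2S3. DHX58, a regulator of RNA sensing, was at 6.69 and 6.25 CPM and at 0.156 and 0.200 there, and at 7.46 and 3.61 in HCC4006P1 and 0.314 and 0.318 in HCC4006ER. DDX58, the sensor RIG-I, was at 89.9 CPM in HCC4006P2 and 296 in HCC4006GR, but at or under 0.254 CPM in UWB1.289, U10 and U100.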

How the data were processed

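The authors deposited 1 table of raw counts per gene for each of 21 libraries. Per the labels and the paper's methods, poly(A) RNA was made into stranded libraries, and the submitters' processing notes name Bowtie, TopHat, SAMtools and HTSeq and the build hg19 (GRCh37), with no versions. The paper also names a 3′ kit, and which library used which kit is not given in the sources used here; 2 kits would differ in how counts depend on transcript length. Summary rows, 28.0 to 42.8% of all counts, were left out of library sizes.

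Of 53515 genes, 45100 were placed with GENCODE annotation of GRCh37. In HCC4006P1 replicate 1 none of 1679 genes past GARS1 (chromosome 7, from 30620149) that reach 50 counts in replicate 2 were counted, so CPM use the counts on genes before that point, and SAMD9 and SAMD9L are not tested where that library enters. The level of a line is the mean CPM of its libraries, changes are differences of log2(CPM + 1) with a pseudocount of 1 CPM, and all 41 members pass a mean of 1 CPM over 17 lines. Single libraries carry 95% Wilson intervals, which cover counting error only.

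Tests used edgeR 4.0.16 (quasi-likelihood, TMM, filterByExpr, R 4.3.3), with an adjusted p under 0.05 by Benjamini-Hochberg over all genes fitted, checked on simulated counts. DESeq2 1.42.0, other size factors, no count filter, all genes and each library left out were alternatives. Values are given in every library for up to 6 members past the threshold with the largest change in each test and for up to 3 each way in each pair; other values were chosen after they were seen. The members and gene lists were chosen with earlier results of these data known. Of the lists only IKBKE had no matching identifier; DDX58, MB21D1 and TMEM173 were matched through older symbols.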

Additional observations from a re-analysis of the deposited data

Results flagged for a closer look

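The change in HepG2S3 against HepG2 and that in HCC4006ER against HCC4006P1 differed, by edgeR's test of the difference of the log2 fold changes (adjusted p under 0.05 over 14478 genes), for 29 of the 38 members tested. The share of all genes that passed was 28.2% upward and 27.7% downward. The difference, HepG2S3 change minus HCC4006ER change, was positive for 19 members. In descending order these were IFI44L 10.78, IFI44 9.78, IFIT2 7.82, DDX60 6.57, BST2 6.19, IFIT1 5.27, OASL 4.32, IFIT3 4.21, HERC5 3.82, HERC6 2.46, OAS3 2.34, USP18 2.06, PLSCR1 1.92, OAS1 1.86, IFIT5 1.35, IFI35 1.07, PARP14 1.04, IFITM2 0.76, IRF1 0.69. It was negative for 10 members, namely MX2 -12.01, CMPK2 -6.36, OAS2 -4.89, IFI6 -3.31, IFI27 -2.81, MX1 -2.77, IRF9 -2.12, IFITM1 -2.06, IFITM3 -1.67, ISG15 -1.55. IFI44L and IFI44 have 2 counts each over the HepG2 libraries and CMPK2 has none in HepG2S3, so the size of their differences depends on the prior count. IRF1 and PARP14 lay nearest the threshold, with edgeR adjusted p of 0.04995 and 0.046.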

How the results depend on the processing

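The calls of single members kept their direction under every alternative run. In HepG2S3 all 29 kept their call with RLE size factors, DESeq2, no count filter and the replicate block, 4 lost it without either HepG2S3 library, and 1 was no longer tested without HepG2 replicate 1. Of the 29 members whose changes in HepG2S3 and HCC4006ER differed, 1 was lost with RLE size factors, 1 with no count filter and at most 4 when a library was left out. The counts in HepG2S3 ranged over 16 to 19 higher and 9 to 16 lower when 1 library was left out. In HCC4006ER 1 of the 22 calls was lost by DESeq2, 15 with all genes fitted and 5 without either HCC4006ER library, and none under the other alternatives. There the count of higher members was 3 and of lower members 4 with all genes fitted, and leaving out 1 library gave 5 to 9 higher and 12 to 28 lower, the 28 without HCC4006P1 replicate 2. The 2 pairs share replicate numbers only: deviations of same-numbered libraries correlated at 0.04 in HepG2S3 and 0.47 in HCC4006ER over genes, and the block of the replicate number gave 24 lower members in HCC4006ER and changed no call in HepG2S3. A second label numbers both HepG2 libraries 1 and both HepG2S3 libraries 2. In the 7-line fit no member was called under any of the alternatives.

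The median change of the set in HepG2S1 was 0.16, -0.13 with TMM-scaled library sizes, 0.11 as CPM of all counts, and 0.17 or 0.21 with a library of HepG2 left out. In HepG2S3 it was 0.23, 1.6e-05 with TMM scaling, and 0.19 to 0.40 with 1 library left out, the 0.40 without HepG2 replicate 2. In HCC4006ER it ranged over -0.58 to -0.06 with 1 library left out. Depth limits the genes near 0: in the smallest library 3 counts are 0.388 CPM, in the largest 0.1004.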
